A study of Mus musculus with 6 samples.

Results

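The leukocyte integrin genes and Cd44 were followed in 32D cells, a mouse myeloid cell line that depends on interleukin-3. They comprise the integrin chains Itga4, Itga5, Itga6, Itgav, Itgal, Itgam, Itgb1, Itgb2 and Itgb7, and Cd44, the hyaluronan receptor gene. Every probe set annotated to one of the 10 gene symbols was taken, which gave 31 probe sets, and the set of highest mean signal over the 6 arrays stands for its gene. All 10 representatives lay above the signal filter, so the genes are 10 of the 10200 genes tested, out of 18193 with a probe set of their own. Samples with the expression construct C2-MiR-9, which per the labels makes miR-9 and miR-9*, numbered 3, and the other 3 carried the empty vector (A1-EV). All 6 cultures were 32D cells in RPMI with 10% fetal calf serum, penicillin, streptomycin and murine interleukin-3 at 10 ng/ml. The labels do not say whether each construct stands for 1 clone or a pool of cells, and give no promoter for the vector. The series' design text calls the replicates independent, and P-values without pairing measure only the spread between these samples.

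Integrins are adhesion receptors made of 1 alpha and 1 beta chain, and neither chain reaches the cell surface without a partner. Itga4 pairs with Itgb1 or Itgb7 and binds VCAM-1, fibronectin or the gut addressin MAdCAM-1. Itga5 with Itgb1 forms the classical fibronectin receptor, Itga6 with Itgb1 a laminin receptor, and Itgav takes several beta chains and binds vitronectin. Itgal and Itgam pair with Itgb2 to form LFA-1, which binds ICAMs and holds leukocytes to endothelium, and Mac-1, the complement receptor of neutrophils and macrophages. CD44 is not an integrin, but shares with them a short cytoplasmic tail linked to the actin cortex, and it holds haematopoietic progenitors to hyaluronan in bone marrow.

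The 2 strands for which the construct is named are shown because the construct is the difference between the arms that the labels give. Their levels in these cells are not among the values used here. Both are cut from the same precursor and carry different seeds, the bases by which a microRNA recognises a message. The sequences are from RefSeq (GRCm38.p6), are the same at all 3 mouse Mir9 loci, and are given here at Mir9-1, at chr3:88215613-88215635 and chr3:88215652-88215673 on the plus strand. Capitals mark the seed, bases 2 to 8 from the 5′ end.
mmu-miR-9-5p (miR-9): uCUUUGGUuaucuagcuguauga
mmu-miR-9-3p (miR-9*): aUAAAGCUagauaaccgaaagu

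Compared within replicate numbers, cells with miR-9/9* carried more Cd44 message and less Itga6 message. The other 8 genes did not pass, and the design's own fit, which has no such pairing, called 0 of the 10. Cd44 stood at 727 ± 113 in miR-9/9* cells and at 570.2 ± 93.4 in empty vector cells, and Itga6 at 378 ± 121 in miR-9/9* cells and at 500.1 ± 119 in empty vector cells (SD, n = 3 arrays each). Both calls were made only when arrays of the same replicate number were compared with each other. Values are MAS5 signals, scaled so that the mean of each array without its lowest and highest 2% is 100. A log2 fold change is the miR-9/9* mean minus the empty vector mean on the log2(signal + 16) scale, which understates the change of dim genes. Without the block, limma passed 0 of the 10 genes at an adjusted p of 0.05, and 0 had an unadjusted p under 0.05. In the same fit 6 of all tested genes passed, or 0.0588%, and 471 had an unadjusted p under 0.05, or 4.62%. With the replicate number as a block, limma passed 2 of the 10, 1 higher and 1 lower, against 301 of all tested genes, or 2.95% (1.51% higher and 1.44% lower). The same 2 genes were the ones with an unadjusted p under 0.05 in that fit, against 17.0% of all tested genes (8.70% higher and 8.27% lower). The design has no block, and the fit with it is an alternative. Arrays of the same number departed from their arm means together, as given in the processing account.

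**Figure D1:**
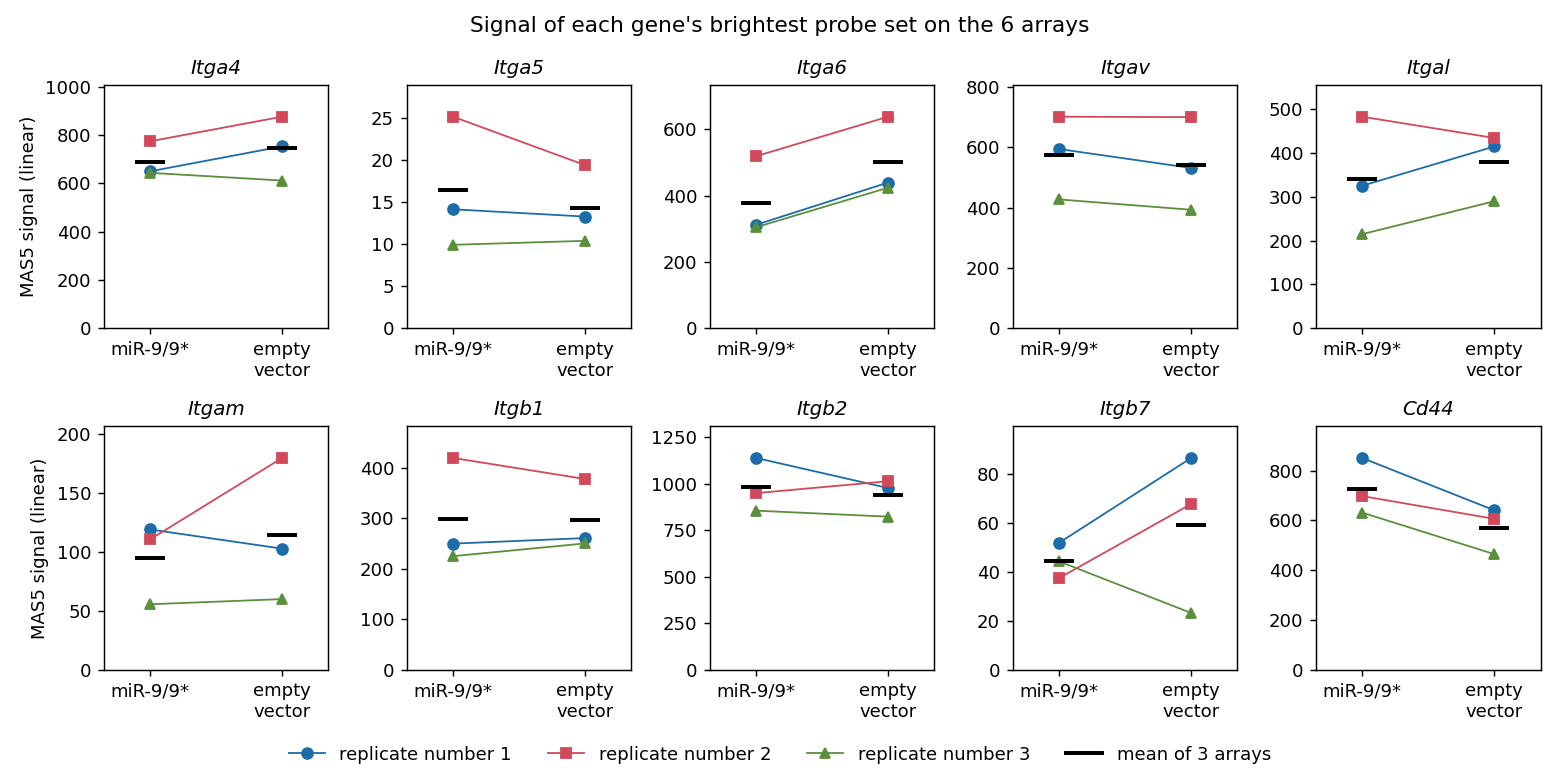
MAS5 signal (linear axis from 0) of the brightest probe set of each of the 10 genes on the 3 miR-9/9* arrays and the 3 empty vector arrays. Lines join arrays of the same replicate number and black bars are means of 3 arrays: all 3 lines of Itga6 lie lower at miR-9/9* and all 3 lines of Cd44 lie higher, while the arms of every gene overlap.

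Facts on the whole series bear on these values as follows. Median signals of the arrays ran from 12.94 to 15.19 in miR-9/9* cells and from 11.99 to 14.54 in empty vector cells, and 0 pairs of arrays held identical values. Of 9 markers of the 32D myeloid line, 8 lay above the filter, Ptprc and the interleukin-3 receptor chains among them, while Gfi1 was below it, and Csf2rb fell with the block. Of 6 stromal and endothelial markers 0 lay above the filter, with no signal above 18.7. Among markers of other blood lineages, 4 of 7 megakaryocyte genes above the filter (Itgb3, Gp9, Gp5 and Vwf), 3 of 7 erythroid genes (Gata1, Klf1 and Rhag) and 2 of 3 eosinophil genes (Prg2 and Siglecf) rose with the block, against 1.51% of all tested genes. The rest of these lists did not pass. On the log2 scale Itga2b stood at 0.07, Pf4 at 0.01 and Treml1 at 0.02. Hemgn stood at 0.21, Epor at 0.12, Tfrc at -0.10 and Epb42 at -0.15. Epx stood at 0.66, with pair 2 at -0.76. Ppbp, Slc4a1, Alas2, Il5ra and Ccr3 lay below the filter. Of 8 neutrophil and primary granule genes above the filter 3 fell with the block (Ltf, S100a8 and S100a9), against 1.44% of all tested genes. These 8 genes did not move together. In limma with the block, 5 were lower and 1 higher at an unadjusted p under 0.05. The higher one was Mpo, at 1.38 on the log2 scale, short of a call at an adjusted p of 0.0745. Its pairs 1, 2 and 3 differed by 2.19, -0.06 and 2.00, and Prtn3 differed by -0.01 on average. Itga2b and Itgb3 are on the megakaryocyte list and also among the further integrin chains given below. The summed signal of the 12 neutrophil and primary granule markers ran from 1640 to 5779 in miR-9/9* cells and from 1868 to 5573 in empty vector cells. Of the 5 monocyte and macrophage markers above the filter 0 passed with the block in limma. At an unadjusted p under 0.05 in that fit, 2 were higher and 1 lower, against 8.70% and 8.27% of all tested genes. Of 4 mast cell and basophil markers and 2 lymphoid markers above the filter, 0 passed with the block. The part of these lineage markers in the values below was not tested. In bulk RNA, fewer cells of a type and less message per cell cannot be told apart.

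Among the alpha chains, Itga6 was the 1 called lower with the block. Itga6, at chr2:71786886-71858427 (GRCm38.p6), encodes the alpha chain of the laminin receptors. Its brighter probe set, 1422445_at, read 312, 518 and 304 in miR-9/9* replicates 1, 2 and 3, against 439, 637 and 424 in empty vector replicates 1, 2 and 3. Replicate number 2 was high in both arms, so the arms overlapped, but the miR-9/9* array was the lower of its pair each time. The log2 fold change was -0.41, with differences of -0.47, -0.29 and -0.46 within replicate numbers 1, 2 and 3. With the block its SE was 0.0697 (adjusted p = 0.0170, 95% interval from -0.56 to -0.25), and without the block 0.227 (adjusted p = 0.999, interval from -0.92 to 0.11). The second probe set, 1422444_at, read 99.5, 147 and 88.7 in miR-9/9* cells, against 153, 227 and 137 in empty vector cells. It fell by a near constant amount in the 3 pairs (-0.55, -0.57 and -0.54), and passed with the block among all 22492 probe sets above the filter (adjusted p = 0.0122). The call of Itga6 with the block was lost without replicate 1 of both arms (adjusted p = 0.0796), with no signal filter (0.0680) and when the variance trend was dropped (0.116).

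Itga4, the alpha chain shared by the VCAM-1 and MAdCAM-1 receptors, read 650, 774 and 644 in miR-9/9* cells, against 753, 876 and 612 in empty vector cells. The arms overlapped, with the miR-9/9* array lower in pairs 1 and 2 and higher in pair 3. Its log2 fold change was -0.10 (block adjusted p = 0.547, 95% interval from -0.27 to 0.07). Of its 5 probe sets 4 lay above the filter, with log2 fold changes of -0.10, -0.11, -0.20 and -0.15, and 0 of these passed with the block in limma, with 0 at an unadjusted p under 0.05. One of the dimmer sets, 1450155_at, separated the arms, at 29.2, 29.1 and 29.8 in miR-9/9* cells against 35.1, 36.2 and 32.0 in empty vector cells (probe set block adjusted p = 0.654).

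Itgal encodes the alpha chain of LFA-1. Its brighter probe set, 1435560_at, read 325, 483 and 215 in miR-9/9* cells, against 415, 434 and 290 in empty vector cells. Pairs 1 and 3 were lower with miR-9/9* and pair 2 was higher (log2 fold change -0.20, block adjusted p = 0.388, interval from -0.44 to 0.04). Its dimmer set, 1425367_at, read 15.96, 34.5 and 25.2 in miR-9/9* cells, against 35.3, 47.4 and 36.9 in empty vector cells. That set was lower in 3 of 3 pairs, its arms did not overlap, and it did not pass either (-0.46 on average, probe set block adjusted p = 0.146). Itgal was not called over all 3 pairs, and it passed in 1 of 11 alternatives with the block. That was without replicate number 2 in both arms, where the log2 fold change was -0.37 (adjusted p = 0.0398).

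Itgam encodes the alpha chain of Mac-1 (CD11b), a surface marker of granulocytes and macrophages. Its 1 probe set read 119, 111 and 55.5 in miR-9/9* cells, against 103, 180 and 59.9 in empty vector cells. The arms overlapped and the pairs had both signs, with empty vector replicate 2 the highest array (log2 fold change -0.18, block adjusted p = 0.610, interval from -0.51 to 0.16). The sign turned without empty vector replicate 2 (0.17, adjusted p = 0.979 without the block), without miR-9/9* replicate 3 (0.11, adjusted p = 0.985 without the block) and without replicate 2 of both arms (0.050, block adjusted p = 0.916). Itgam had no settled direction here.

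Itgav, the vitronectin receptor alpha chain, read 594, 701 and 427 in miR-9/9* cells, against 531, 699 and 393 in empty vector cells. All 3 pairs were higher with miR-9/9*, by 0.16, 0.0031 and 0.12 on the log2 scale, and the gene did not pass (0.09 on average, block adjusted p = 0.546, interval from -0.06 to 0.24). Over all tested genes, 21.0% were higher and 18.0% lower in 3 of 3 pairs, against 2 and 1 of the 10 genes. Itga5, the fibronectin receptor alpha chain, was close to the filter, which lay at a signal of 13.0. Its brightest set, 1457561_at, read 14.1, 25.2 and 9.93 in miR-9/9* cells and 13.3, 19.4 and 10.4 in empty vector cells, and its other 3 sets lay below the filter. A difference in Itga5 was not measurable at such signals (log2 fold change 0.08, block adjusted p = 0.853, interval from -0.26 to 0.42).

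The beta chains gave no call. Itgb2, at chr10:77530329-77565708, is the common beta chain of LFA-1 and Mac-1 and is the gene mutated in leukocyte adhesion deficiency of humans. It read 1138, 948 and 854 in miR-9/9* cells, against 976, 1013 and 822 in empty vector cells. The arms overlapped and the pairs had both signs (log2 fold change 0.06, block adjusted p = 0.756). Its interval ran from -0.11 to 0.23 with the block and from -0.25 to 0.37 without it.

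Itgb1, the beta chain shared by the laminin, fibronectin and VCAM-1 receptors, was covered by 6 probe sets, 3 of them above the filter. The brightest, 1426918_at, read 249, 419 and 225 in miR-9/9* cells, against 260, 377 and 250 in empty vector cells. It showed no shift (log2 fold change -0.02, block adjusted p = 0.938, interval from -0.20 to 0.16). The next, 1452545_a_at, read 227, 335 and 245 in miR-9/9* cells, against 210, 293 and 160 in empty vector cells. That set was higher in 3 of 3 pairs (log2 fold change 0.29, probe set block adjusted p = 0.206). The third, 1427771_x_at, stood at 0.26 with pairs of both signs, and with the 3 averaged the gene stood at 0.18 (block adjusted p = 0.283). In limma with the block 0 of the 3 sets passed, and 1452545_a_at was the 1 set with an unadjusted p under 0.05. Itgb4, the other beta chain that pairs with Itga6, is given here although it was chosen after its values were seen. It was dim, at 10.5, 47.3 and 19.7 in miR-9/9* cells against 40.4, 67.0 and 19.6 in empty vector cells. Its arms overlapped, and pairs 1, 2 and 3 differed by -1.09, -0.39 and 0.0075 on the log2 scale. The mean difference of -0.49 was not called (block adjusted p = 0.254, interval from -0.94 to -0.04).

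Itgb7, the partner of Itga4 in the gut-homing receptor, was dim and its arms overlapped. It read 51.8, 37.4 and 44.2 in miR-9/9* cells, against 86.4, 67.6 and 23.1 in empty vector cells. Pairs 1 and 2 were lower by -0.60 and -0.65 and pair 3 was higher by 0.62 on the log2 scale, the widest disagreement between pairs among the 10 genes. Over all 3 pairs the log2 fold change was -0.21 (block adjusted p = 0.713, interval from -0.72 to 0.31). Without replicate 3 of both arms it was -0.62 and passed with the block (adjusted p = 0.0369), and without empty vector replicate 1 it was 0.07.

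Cd44, at chr2:102811141-102901669, was called higher in miR-9/9* cells with the block. Its brightest set, 1434376_at, read 851, 698 and 631 in miR-9/9* cells, against 641, 606 and 464 in empty vector cells. The lowest miR-9/9* array lay just below the highest empty vector array, and the miR-9/9* array was the higher of its pair each time. The log2 fold change was 0.34, with differences of 0.40, 0.20 and 0.43 within the pairs. With the block its SE was 0.0714 (adjusted p = 0.0390, interval from 0.18 to 0.50), and without the block 0.158 (adjusted p = 0.999, interval from -0.02 to 0.70). The set 1423760_at read 718, 628 and 611 in miR-9/9* cells, against 528, 520 and 396 in empty vector cells. Here every miR-9/9* array was above every empty vector array (log2 fold change 0.44, probe set block adjusted p = 0.0262). The set 1452483_a_at also separated the arms, at 88.5, 94.9 and 102 in miR-9/9* cells against 57.6, 86.3 and 67.2 in empty vector cells (0.37, probe set block adjusted p = 0.165). The fourth set, 1443265_at, stayed below 1 on all arrays. Tested among all probe sets rather than genes, the brightest set had a block adjusted p of 0.0531. The gene's call did not survive leaving out number 1 (adjusted p = 0.172) or 3 (0.0804) in both arms, nor was it made with no signal filter (0.121), with the variance trend dropped (0.173) or with arrays centred on their medians (0.0685).

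**Figure D2:**
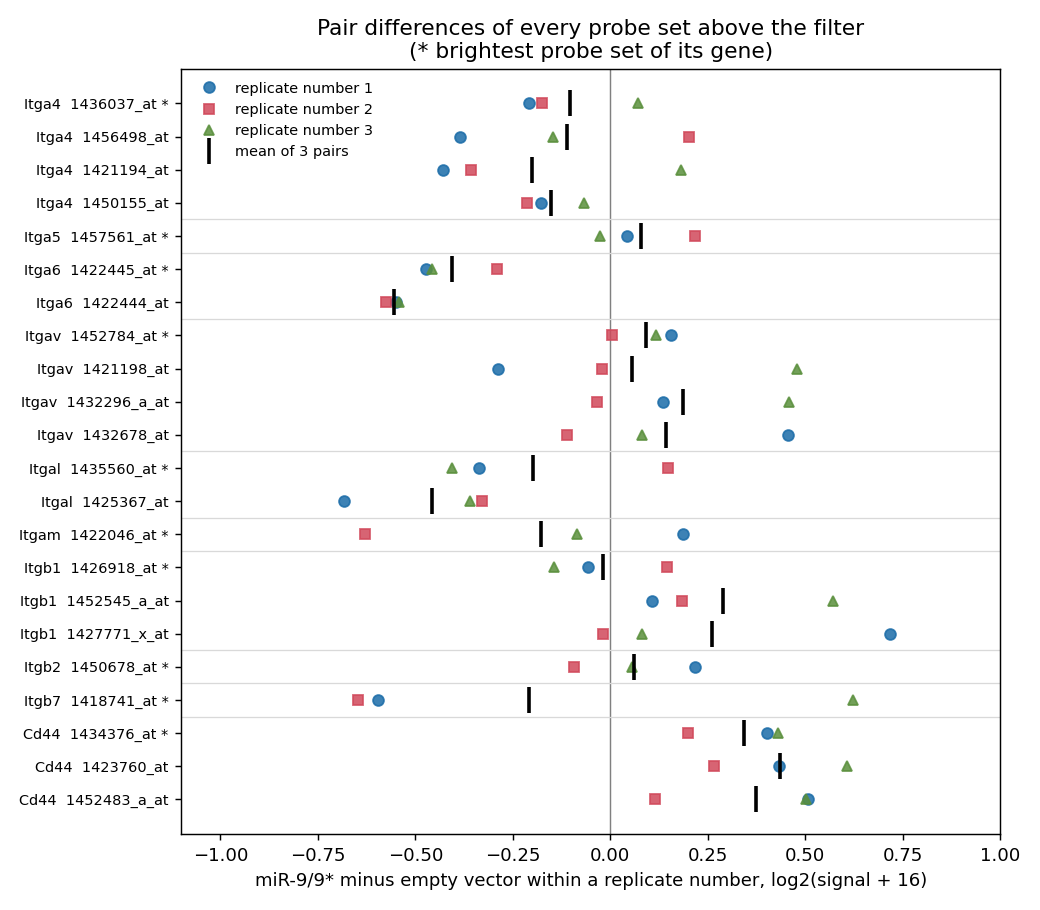
Difference between miR-9/9* and empty vector within each replicate number (x axis, log2(signal + 16)) for the 22 probe sets of the 10 genes that lay above the filter, with the mean of 3 pairs as a black tick. The 2 sets of Itga6 lie left of 0 and the 3 sets of Cd44 right of 0 in every pair, while pairs of Itgb1 fall on both sides.

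Across the 22 probe sets above the filter, 3 passed with the block: both sets of Itga6 and 1423760_at of Cd44. Among all 22492 probe sets above the filter, 439 passed with the block and 2 without it. Of the 10 genes, by their representatives, 0 had arms that did not overlap, against 9.82% of all tested genes. The median absolute log2 fold change was 0.14 over the 10 genes and 0.10 over all tested genes.

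**Figure D3:**
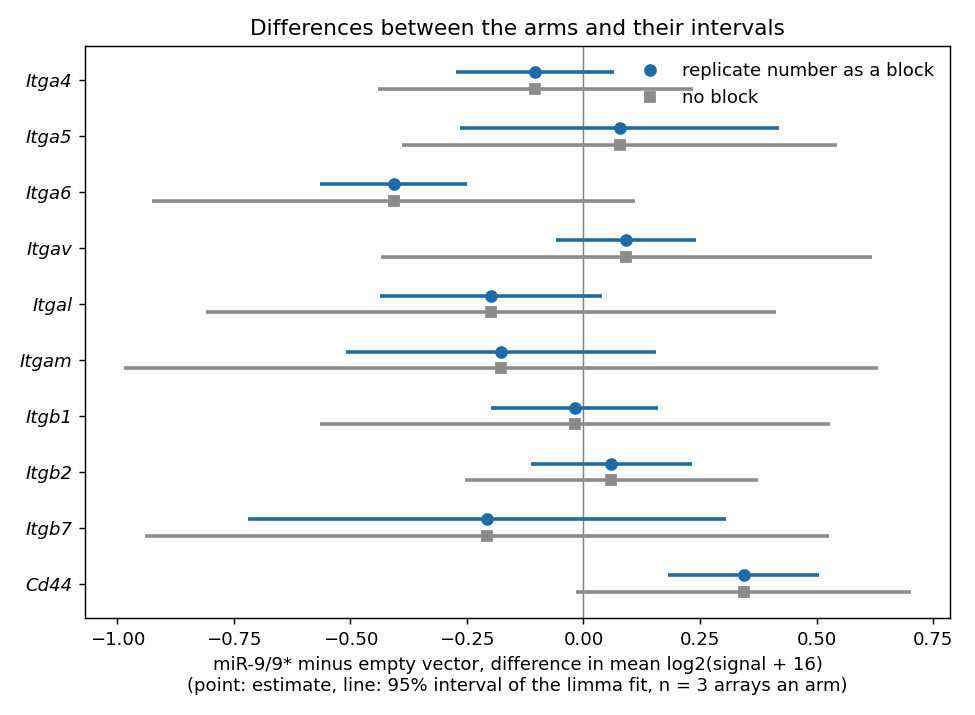
Estimated difference between miR-9/9* and empty vector (x axis, log2(signal + 16)) for the 10 genes, with 95% intervals from limma with the replicate number as a block (blue circles) and without it (grey squares), n = 3 arrays an arm. With the block the intervals of Itga6 (-0.56 to -0.25) and Cd44 (0.18 to 0.50) lie clear of 0 and the other 8 include it, and without the block all 10 include it.

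Like most tested genes, these had a range over replicate numbers that was larger than the arm difference. For each gene the mean log2 value of each number was taken over both arms, and the range of these 3 means exceeded the arm difference for 10 of 10 genes. The same held for 84.2% of all tested genes. A range of 3 means tends to exceed a difference of 2 means even where the number has no effect. These counts therefore do not show whether number or arm mattered more. The range had a median of 0.68 over the 10 genes, against 0.29 over all tested genes. All 10 genes were lowest at number 3 by this mean, against 45.6% of all tested genes, and all but Itgb7 were lowest there within each arm too. Of their 22 probe sets above the filter, 19 were lowest at number 3. After quantile normalization between arrays 10 of 10 were still lowest there, against 35.3% of tested genes. The gap was widest for Itgam, whose number 3 differed from the mean of numbers 1 and 2 by -0.94 on the log2 scale. It was smallest for Itga4 (-0.27) and Itgb2 (-0.27). Number 2 was the highest for 7 of the 10 genes, against 36.2% of all tested genes. The genes were chosen as a family with earlier results known, and what the numbers stand for in the laboratory is not given in the sources used here.

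Profiles over the 6 arrays were compared with those of all other tested genes for the 3 genes of widest range, Itgam, Itgb7 and Itgal. Likeness was the root mean square difference between profiles centred on their own means. Closest to Itgam, whose range was 1.45, were Pik3ip1 (0.0851), Rbm47 (0.0967) and Klf10 (0.115). Each of these was highest on empty vector replicate 2 and low on both number 3 arrays. Closest to Itgal, with a range of 1.11, were Slc16a4 (0.0642), Wasl (0.0765) and Coq8a (0.0980). Closest to Itgb7, with a range of 1.39, were Crhr1 (0.103), Fxyd4 (0.155) and 4930486L24Rik (0.158), all dim. With so many genes to choose from and only 6 arrays, close profiles are a description.

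The other integrin chains were mostly dim in 32D cells. Of 12 further alpha chains, 10 had a probe set and 2 lay above the filter, and of 5 further beta chains 3 did. Itga2b, the platelet fibrinogen receptor alpha chain, read 1331, 1645 and 1015 in miR-9/9* cells, against 1280, 1595 and 946 in empty vector cells (log2 fold change 0.07, block adjusted p = 0.682). Itgb3, its partner and also a partner of Itgav, read 149, 161 and 83.8 in miR-9/9* cells, against 22.9, 34.5 and 15.5 in empty vector cells. The arms of Itgb3 did not overlap, and it passed with the block (log2 fold change 1.85, adjusted p = 0.000536) and not without it (0.0760). Its size depended on the pseudocount, at 2.40 with a pseudocount of 1 and 1.12 with one of 64. Without the block it passed after quantile normalization (adjusted p = 0.0482), with arrays centred on their medians (0.0498) and without miR-9/9* replicate 3 (0.0280). Itgb3 was 1 of 5 further chains tested to pass, the others being Itga2b, Itgae, Itgb4 and Itgb5, which did not. Itgae, an alpha chain that pairs with Itgb7, read 32.2, 32.1 and 32.1 in miR-9/9* cells, against 25.05, 20.8 and 10.7 in empty vector cells. It was higher in 3 of 3 pairs and did not pass (0.49, block adjusted p = 0.160), and its dimmer set stood at 0.0075.

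On the lists of inside-out and outside-in signalling genes, 3 genes passed with the block, each lower with miR-9/9*. At an unadjusted p under 0.05 in limma with the block, both lists had genes of both signs. Among integrin activators and tail-binding proteins 2 were higher and 3 lower, and among outside-in signalling genes 2 were higher and 2 lower. Over all tested genes 8.70% were higher and 8.27% lower by this measure. Of 14 integrin activators and tail-binding proteins above the filter, 0 rose and 1 fell with the block, against 1.51% and 1.44% of all tested genes (median log2 fold change 0.01, against 0.01 over all tested genes). That gene was Rasgrp2, a calcium-dependent exchange factor that loads Rap1 and through it switches integrins on in platelets and leukocytes. It read 142, 167 and 118 in miR-9/9* cells, against 208, 278 and 174 in empty vector cells (log2 fold change -0.57, block adjusted p = 0.00900, arms apart). Its 3 dimmer sets above the filter stood at -0.12, -0.33 and -0.43, and averaging the 4 ended the call (adjusted p = 0.0718), as did dropping the variance trend (0.0712).

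Of 16 outside-in signalling genes above the filter, 0 rose and 2 fell with the block, again against 1.51% and 1.44% of all tested genes (median log2 fold change -0.01). Vcl encodes vinculin, which ties talin to actin at adhesion sites. It read 403, 587 and 458 in miR-9/9* cells, against 670, 697 and 614 in empty vector cells (-0.45, block adjusted p = 0.0319, arms apart). Its call was lost without replicate 1 of both arms (adjusted p = 0.139), with no signal filter (0.129) and when the variance trend was dropped (0.162). Zyx encodes zyxin, an adhesion site protein that responds to tension. It read 244, 255 and 135 in miR-9/9* cells, against 324, 362 and 201 in empty vector cells, lower in 3 of 3 pairs (-0.46, block adjusted p = 0.0130). Its call was lost with no signal filter (adjusted p = 0.0520), with the variance trend dropped (0.0872) and with probe sets averaged (0.0648). Without the block 0 of these 3 genes passed in limma, Rasgrp2 and Vcl having an unadjusted p under 0.05.

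The ligands, CD44 linkers and other adhesion receptors gave 0 calls with the block in limma. Of 7 ligands above the filter, 1 was higher at an unadjusted p under 0.05 with the block, of 8 CD44 linkers and sheddases 1 was lower, and of 10 other leukocyte adhesion receptors 3 were lower. Over all tested genes 8.70% were higher and 8.27% lower at that p. Their median log2 fold changes were -0.08, -0.07 and -0.13. Icam2, an LFA-1 ligand, stood at 262 ± 3.80 in miR-9/9* cells and at 271 ± 15.99 in empty vector cells, and Icam4, another ICAM, at 122 ± 19.3 in miR-9/9* cells and at 99.8 ± 19.2 in empty vector cells (SD, n = 3 each). Msn, moesin, which links the CD44 tail to actin, stood at 1469 ± 76.7 in miR-9/9* cells and at 1623 ± 112 in empty vector cells (log2 fold change -0.14, block adjusted p = 0.337). Its dimmer set above the filter had the other sign, at 0.08. Adam10, a protease that sheds CD44, stood at 1626 ± 314 in miR-9/9* cells and at 1766 ± 156 in empty vector cells (-0.13, block adjusted p = 0.484). Cd47, an integrin-associated protein, differed by -0.05 (block adjusted p = 0.816), and Cd48, a ligand of other leukocyte receptors, by -0.03 (0.880). The dimmer Cd47 sets above the filter had both signs, at 0.03, 0.009, -0.12 and -0.10.

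**Figure D4:**
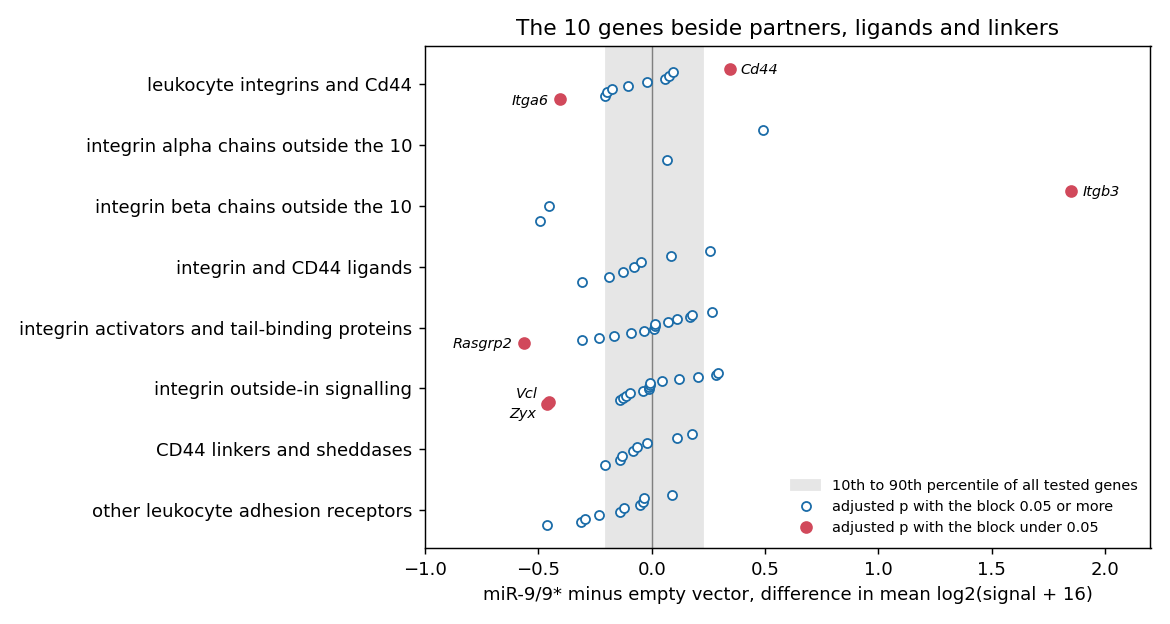
Difference between miR-9/9* and empty vector (x axis, log2(signal + 16)) for the 10 genes in the top row and, below, for the genes of each neighbouring list that lay above the filter. Filled red points passed with the block (Itga6, Cd44, Itgb3, Rasgrp2, Vcl and Zyx), open points did not, and the grey band spans the 10th to 90th percentile of all tested genes (-0.20 to 0.22).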

How the data were processed

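The deposited intensity values are MAS5 signals on a linear scale, per the submitters' processing notes, with no version given. Per the labels' protocols, biotin-labelled cRNA was prepared from total RNA (6 ug). Of 45101 probe sets, 64 are controls and were left out; for the rest, the platform annotation of 2016 gives 1 symbol for 34945, several for 932 and none for 9160, and 34741 matched a RefSeq gene of GRCm38.p6 by Entrez ID. The brightest probe set stood for its gene. Signals became log2(signal + 16), not normalized again, and genes with a mean under the median of all probe sets (4.86) were left out. Limma 3.58.1 under R 4.3.3 compared the arms, with a variance trend, two-sided p-values and Benjamini-Hochberg adjusted values over every gene tested (threshold 0.05). The design has no block, and the block on replicate number is an alternative.

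Arrays sharing a number left their arm means together: across genes the correlations of these deviations were 0.492, 0.617 and 0.683, over the limit of 0.1, so the numbers pair the samples. The pairing is read from the data. The blocked fit leaves 2 residual degrees of freedom, against 4. The script was tested on simulated data, with changes larger than those of Itga6 and Cd44. Recovery of changes as small as theirs was not tested.

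The 10 genes and the lists were chosen with earlier results of these data known. All 10 genes are named. From each list of adhesion genes the genes called in either fit are named, up to 4, or the 2 with the highest mean. This rule covers no lineage marker list, and the genes on those lists were named after the counts were seen. Detection calls were not used here, and the number of arrays limits the precision.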

Additional observations from a re-analysis of the deposited data

How the results depend on the processing

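Across the alternatives without the block, limma called 0 of the 10 genes. With the replicate block it called 2, Itga6 and Cd44, the block changed the call of no other of the 10, and combined with the block it called 2 with a pseudocount of 1 or 64, the stricter signal filter, quantile normalization or averaged probe sets, 1 with arrays centred on their medians, and 0 with no filter or no variance trend. Without replicate 1, 2 or 3 of both arms the blocked count ran from 0 to 3. Over all tested genes the count of 6 became 301 with the block, 2 with a pseudocount of 1, 3 without a variance trend and 0 with no filter. With the block it was 283 and 295 with pseudocounts of 1 and 64, 67 with no filter, 265 with the stricter filter, 276 after quantile normalization, 269 after median centring, 38 without a variance trend and 232 with averaged probe sets. Leaving out single arrays gave 0 to 7 genes, and leaving out number 1, 2 or 3 with the block 168, 339 and 364.

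Itga6 stayed lower (-0.65 to -0.22) and Cd44 higher (0.21 to 0.44) under all 26 alternatives. The other 8 genes changed sign when arrays were left out. Without a single array, log2 fold changes ran from -0.24 to 0.016 for Itga4, -0.11 to 0.23 for Itga5, -0.11 to 0.29 for Itgav, -0.48 to 0.081 for Itgal, -0.51 to 0.17 for Itgam, -0.28 to 0.16 for Itgb1, -0.051 to 0.15 for Itgb2 and -0.62 to 0.073 for Itgb7. Without a number of both arms, values of the opposite sign were 0.050 for Itgam, 0.00096 and 0.044 for Itgb1, -0.019 for Itgb2 and 0.013 for Itgb7, and with averaged probe sets Itgb1 stood at 0.18, with and without the block. Alternatives for neighbouring genes were added after seeing the data. Without a single array Itga2b ran from -0.13 to 0.25, Cd47 from -0.15 to 0.062 and Cd48 from -0.24 to 0.20, and Cd48 was 0.030 without replicate 3 of both arms. Itgb3 ran from 1.12 to 2.40 and Itgb4 from -0.84 to -0.19 over all 24 alternatives that gave them a value. The cause of these changes was not tested, beyond the fewer samples left.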
